A study of Mus musculus with 4 samples.

Results

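CD8 T cells that carried RNA of both PD-1 (Pdcd1) and LAG-3 (Lag3) were examined among intratumoral CD3+ T cells of Tsc2-deficient 105K mouse renal tumors. The cells were chosen by their RNA: a barcode was counted when it had 200 to 3000 detected genes, at most 5% mitochondrial UMIs, at least 3 UMIs of Cd8a and Cd8b1 together, no Cd4 UMI, at least 1 UMI of Pdcd1 and 1 of Lag3, and not UMIs of both Ifit1 and Ifit3. The rule gave 1371 PD-1 LAG-3 CD8 cells among 9200 CD8 cells and 21900 cells that passed the limits on genes and mitochondrial UMIs. They were 181 and 181 cells in the 2 sh-NC libraries and 447 and 562 cells in the 2 sh-B7-H3 (1) libraries. They were set beside 1309 other CD8 cells of the same libraries that had at least 20 UMIs of Ccl5, a chemokine of antigen-experienced CD8 T cells, but neither both receptors nor both Ifit1 and Ifit3 (209, 257, 350 and 493 cells). Throughout, the values of the 4 libraries are given in the order sh-NC 1, sh-NC 2, sh-B7-H3 (1) 1 and sh-B7-H3 (1) 2.

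The tumors grew under the skin of 6-week-old male C57BL/6J mice from 105K cells, which lack Tsc2 and so have high mTORC1 activity. The tumor cells stably expressed either the non-targeting hairpin sh-NC or the hairpin sh-B7-H3 (1), which targets the immune checkpoint B7-H3 (Cd276). For each hairpin 80 tumors were pooled, live CD3+ cells were sorted, and 2 libraries were made, which the study treats as independent samples. How the tumors were divided between the libraries is not given in the sources used here, so no p-value below measures the spread between mice. Those of the hairpin comparisons measure the spread between these 2 pooled samples, which may be technical. Those of the comparisons of cell groups, and of the interaction, measure how the difference within a library varies between libraries, which may be technical too. RNA was read by 10x Genomics 3′ sequencing as UMIs, that is, as tagged single molecules, and 197 named surface proteins were read through oligonucleotide-tagged antibodies (CITE-seq). The hairpin acts in the tumor cells, and Cd276 had 0 UMIs in the PD-1 LAG-3 CD8 cells of all 4 libraries, so the labels could not be checked on the targeted gene.

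CD8 T cells that meet antigen for a long time, as in tumors and chronic infection, enter a state called exhaustion. They keep several inhibitory receptors on their surface, among them PD-1, LAG-3, TIM-3 and TIGIT, and the nuclear factor TOX holds this program in place, while NR4A factors are induced by T cell receptor signals. Such cells form from progenitors that express TCF-1 (Tcf7), SLAMF6 and the IL-7 receptor. More differentiated exhausted cells have lost these genes, while many still make granzymes and the chemokines CCL3 and CCL4.

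The promoters of Ccl3, Nr4a2 and Havcr2 (TIM-3) are shown because these 3 genes were, outside the rule, the label markers of these cells with differences of more than 1 on the log2 scale. The 250 bases before the RefSeq transcription start (GRCm38.p6) read, 5′ to 3′ on the gene's strand:
Ccl3, chr11:83649379-83649628 (minus strand): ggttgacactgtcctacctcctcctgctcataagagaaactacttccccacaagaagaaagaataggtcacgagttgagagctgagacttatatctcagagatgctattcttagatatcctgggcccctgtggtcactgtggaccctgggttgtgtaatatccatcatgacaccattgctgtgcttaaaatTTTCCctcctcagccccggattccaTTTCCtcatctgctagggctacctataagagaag
Nr4a2, chr2:57124004-57124253 (minus strand): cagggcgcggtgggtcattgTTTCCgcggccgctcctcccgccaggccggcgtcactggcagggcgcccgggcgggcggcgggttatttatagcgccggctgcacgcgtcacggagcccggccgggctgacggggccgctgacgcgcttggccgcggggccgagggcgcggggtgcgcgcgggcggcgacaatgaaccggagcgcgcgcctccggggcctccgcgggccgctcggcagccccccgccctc
Havcr2, chr11:46454681-46454930 (plus strand): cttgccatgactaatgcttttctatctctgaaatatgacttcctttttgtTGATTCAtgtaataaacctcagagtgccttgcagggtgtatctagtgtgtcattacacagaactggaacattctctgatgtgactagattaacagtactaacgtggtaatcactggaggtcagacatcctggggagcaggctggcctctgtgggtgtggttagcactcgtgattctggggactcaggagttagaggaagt
Capitals mark matches to GGAAA, the core bound by NFAT, which on the opposite strand reads TTTCC, and to TGANTCA, the AP-1 element. The Ccl3 promoter held 2 such cores, at -59 and -34 from the start, the Nr4a2 promoter 1 at -230, and the Havcr2 promoter 1 AP-1 match at -200. Neither TGACGTCA, the cAMP response element, nor AAAGGTCA, the element bound by NR4A factors, occurred in these 3 windows. Searched on both strands, the NFAT core was present in 55.57% of 32851 promoters, the AP-1 element in 6.749%, the cAMP response element in 1.546% and the NR4A element in 1.336%, and a match is a description of letters only. None of the matches overlapped another.

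The receptors that defined the cells are given as a description. Pdcd1 (ENSMUSG00000026285, chr1:94038305-94052553, mm10, minus strand) was at 474, 512, 421 and 432 UMIs per 1000000 UMIs (CPM) in the PD-1 LAG-3 CD8 cells and 108, 124, 129 and 138 CPM in the other Ccl5-high cells. Lag3 (ENSMUSG00000030124, chr6:124904361-124911705, minus strand) was at 371, 384, 406 and 383 CPM against 47.5, 55.9, 108 and 85.8 CPM. The median cell held 2, 3, 2 and 3 UMIs of Pdcd1 and 2 UMIs of Lag3 in each library, and 32, 21, 56 and 57 cells stood at the edge of the rule with 1 UMI of each. Just outside it were 14, 15, 26 and 51 cells with 1 Cd4 UMI, 2, 1, 2 and 5 cells with 2 Cd8 UMIs, 41, 45, 82 and 81 cells with 3001 to 5000 genes, and 33, 24, 34 and 42 cells that carried both receptors but also Ifit1 and Ifit3. Of the PD-1 LAG-3 CD8 cells, 177, 177, 436 and 546 also had at least 20 UMIs of Ccl5. As a background of free RNA, naive-like CD8 cells, with no Ccl5 UMI and at least 1 UMI of Lef1, a factor of naive T cells, were counted in the same way: 1 of 1895, 1 of 1528, 1 of 116 and 0 of 128 had both, although their median depth of 9065, 9419.5, 8914.5 and 8661 UMIs was above the 6187, 6296, 6652 and 7001 UMIs of the PD-1 LAG-3 CD8 cells. The 0 of 128 allows a share of up to 2.34%. Asking for no Ccl5 UMI also left out droplets that had taken up free Ccl5 RNA, so these counts may understate the background.

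The label of these cells as exhausted-like was checked on its 4 markers outside the rule. Tox, Havcr2, Ccl3 and Nr4a2 were all higher than in the other Ccl5-high cells with no overlap of the libraries, but these markers were chosen with results of the same data known and are no independent evidence. The 7 T cell genes tested outside the rule had a median log2 difference of 0.19, with none past the limits. These genes are shared by CD4 and CD8 cells, and both cell groups met the same Cd8 and Cd4 limits, so this does not test CD8 identity. The CD8b tag was at 12339.7, 13374, 15271 and 14142 tag UMIs per 1000000 (tag CPM) in the PD-1 LAG-3 CD8 cells. Its per-cell median there was 69, 69, 55 and 40 UMIs, against 3, 2, 3 and 2 UMIs in CD4 cells chosen by their RNA. The CD4 tag stayed at 240.0, 191, 427 and 373 tag CPM in the PD-1 LAG-3 CD8 cells.

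Over the whole series the libraries held 12112, 10589, 7030 and 9129 called barcodes with 79224898 to 132820909 RNA UMIs each. The 4 libraries shared 17 to 35 barcodes per pair, none of them among the PD-1 LAG-3 CD8 cells. These cells contributed 1199047, 1233764, 3172393 and 4141833 RNA UMIs, so the sh-NC values rest on fewer molecules. Doublets were not removed, and a doublet score among the highest 20% of its library was found in 16, 12.7, 31.8 and 34.2% of the PD-1 LAG-3 CD8 cells and in 29.2, 25.3, 30.9 and 27.2% of the other Ccl5-high cells. The gene model Gm42418, which overlaps ribosomal RNA sequence, moved with the hairpin in both cell groups, at 5384, 5494, 27273 and 27022 CPM in the PD-1 LAG-3 CD8 cells, and their median mitochondrial share was 1.99, 2.13, 2.83 and 2.78%. The part of either in the results below was not tested.

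PD-1 LAG-3 CD8 cells made up 5.62% (95% exact binomial interval 4.85 to 6.48) and 6.48% (5.59 to 7.46) of CD8 cells in the sh-NC libraries. In the sh-B7-H3 (1) libraries they made up 33.2% (30.7 to 35.8) and 30.5% (28.4 to 32.7). The means were 6.05% ± 0.605 and 31.9% ± 1.93 (SD, n = 2 each), a ratio of 5.27, with no overlap between the groups. Of all cells that passed the limits, the shares were 2.40, 2.90, 12.8 and 12.2%, a ratio of 4.70. An exact two-sided permutation test over 2 against 2 libraries gave p = 0.33 for either share, the smallest value this design allows. Because detection of both receptors depends on depth, the rule was also applied after each cell was thinned to 2000 RNA UMIs. It then found 2.47, 4.24, 14.2 and 11.4% of CD8 cells, a ratio of 3.82, and 58, 41, 223 and 283 cells were too shallow to enter. At 1000 UMIs it found 2.73, 1.89, 5.29 and 4.33% of CD8 cells, a ratio of 2.08 that rests on 23, 16, 25 and 26 PD-1 LAG-3 CD8 cells. The limits on Cd8 and Cd4 UMIs were applied again after thinning, so the denominator was not the same set of CD8 cells. It held 2102, 1864, 955 and 1316 cells at 2000 UMIs and 844, 845, 473 and 601 cells at 1000 UMIs. Without thinning, and without cells that had 2 or more UMIs of macrophage or B cell genes, the ratio was 3.22. That limit left 1419 of 3219, 1209 of 2794, 848 of 1345 and 1092 of 1842 CD8 cells but 152 of 181, 156 of 181, 338 of 447 and 395 of 562 PD-1 LAG-3 CD8 cells. In every library it thus took a larger share of the denominator than of the PD-1 LAG-3 CD8 cells, by a wider margin in the sh-NC libraries. The B cell list alone reached 2 UMIs in 47.2, 48.2, 21.7 and 21.9% of all cells that passed the limits. The other CD8 cells differed between the groups as well, since naive-like CD8 cells made up 58.9, 54.7, 8.62 and 6.95% of CD8 cells. Among CD8 cells with at least 20 UMIs of Ccl5 and not both Ifit1 and Ifit3, a denominator chosen after the data were seen, the share of PD-1 LAG-3 CD8 cells that also met this Ccl5 limit was 45.9% (40.8 to 51.0) and 40.8% (36.1 to 45.6) with sh-NC and 55.5% (51.9 to 59.0) and 52.6% (49.5 to 55.6) with sh-B7-H3 (1), a ratio of 1.25 (exact two-sided permutation p = 0.33). The intervals cover counting error only, and the share in the sh-B7-H3 (1) libraries was above that in the sh-NC libraries at each depth and with each of these denominators, while the ratio ranged from 1.25 to 5.27.

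**Figure D1:**
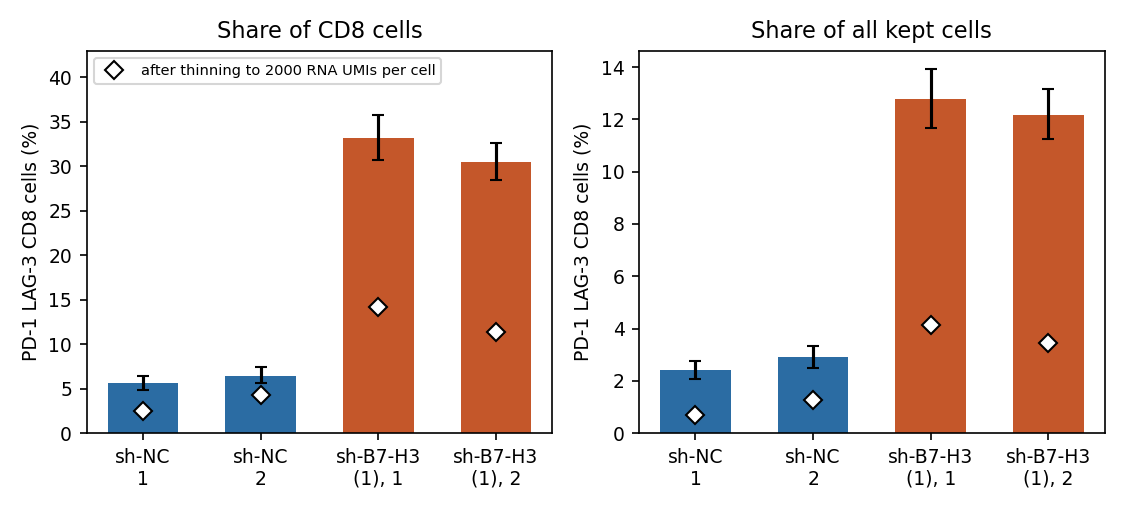
Share of PD-1 LAG-3 CD8 cells in each library, in percent of CD8 cells (left) and of all cells that passed the limits (right). Bars are the shares with 95% exact binomial intervals, and diamonds are the shares after thinning every cell to 2000 RNA UMIs. For the diamonds on the left the CD8 cells were also chosen anew after thinning. Both sh-B7-H3 (1) libraries (30.5 and 33.2% of CD8 cells) stood above both sh-NC libraries (5.62 and 6.48%).

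Compared with the other Ccl5-high CD8 cells, PD-1 LAG-3 CD8 cells carried more RNA of Ccl3, Ccl4, Nr4a2, Nr4a3, Tnfrsf9, Havcr2 and Cd244a, and 10 of 13 genes of resting and progenitor cells were lower. UMIs were summed per library and cell group and compared by edgeR's quasi-likelihood test with the library as a block, with p-values adjusted by Benjamini-Hochberg over the 8648 genes tested. A gene was called at an adjusted p under 0.05 and a difference of at least 1 on the log2 scale. Of all genes tested, 60 were called higher (0.694%) and 72 lower (0.833%). At the adjusted p alone, 289 were higher (3.34%) and 309 lower (3.57%). The 132 calls became 70 without cells that had 2 or more UMIs of macrophage or B cell genes, and 84 when the other cells were matched in depth.

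The chemokine Ccl3 (ENSMUSG00000000982, chr11:83647844-83649355, minus strand), which draws in myeloid and T cells, was at 518, 695, 957 and 873 CPM in the PD-1 LAG-3 CD8 cells and at 189, 55.4, 187 and 162 CPM in the other cells. All 4 libraries of the former lay above all 4 of the latter, with a log2 difference of 2.30 ± 0.19 (SE over 4 libraries, as for all differences below; adjusted p = 3.4e-06). Its neighbour Ccl4 (ENSMUSG00000018930, chr11:83662584-83664683, plus strand) was at 1745, 1519, 2243 and 1948 against 596, 349, 570.0 and 542 CPM, a difference of 1.77 ± 0.09 (adjusted p = 4.94e-09). Ifng, the interferon of cytotoxic T cells, rose below the limit of 1, by 0.87 (adjusted p = 0.000322). Of the 8 cytokine and chemokine genes tested outside the rule, 4 were called higher and none lower, and their median difference was 1.01 beside -0.0011 for all genes. The other called members were Spp1, which encodes osteopontin and is also made by macrophages (1.30), at 2.50, 11.3, 28.1 and 15.5 CPM, and Xcl1 (1.15). Xcl1 rested on few cells: it was detected in 13, 19, 38 and 32 of the PD-1 LAG-3 CD8 cells, and a single cell held 28 of 90, 115 of 252, 197 of 480 and 169 of 448 of its UMIs. Spp1 rested on 3, 14, 89 and 64 UMIs, of which a single cell held 2, 8, 26 and 10.

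Among nuclear factors, Nr4a2 (ENSMUSG00000026826, chr2:57106830-57124003, minus strand), an immediate-early nuclear receptor, stood at 75.1, 89.2, 118 and 109 CPM against 17.0, 11.1, 25.8 and 26.0 CPM. The groups did not overlap, and the log2 difference was 2.17 ± 0.12 (adjusted p = 2.24e-08). Tox (ENSMUSG00000041272, chr4:6686353-6991557, minus strand) was at 306, 316, 371 and 332 against 142, 151, 242 and 219 CPM, higher by 0.71 ± 0.08 (adjusted p = 3.49e-05), which stays under the limit of 1. Of the 17 factors of exhausted and effector T cells tested, 3 were called higher (Nr4a2, Nr4a3 at 1.82 and Irf8 at 1.31) and none lower. At the adjusted p alone, 9 were higher, among them the Notch effector Rbpj (0.86), the AP-1 factor Batf (0.69) and Nfatc1 (0.42), and the median of the list was 0.45. Eomes and Tbx21, the T-box factors of effector and memory cells, differed by 0.10 (adjusted p = 0.629) and -0.21 (adjusted p = 0.518). The difference of Irf8 was 0.95, under the limit, without the 20% of cells with the highest doublet scores.

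Havcr2, which encodes the inhibitory receptor TIM-3 (ENSMUSG00000020399, chr11:46454935-46481255, plus strand), was at 79.2, 75.4, 83.2 and 106 CPM in the PD-1 LAG-3 CD8 cells and 21.9, 21.7, 56.6 and 39.0 CPM in the other cells, a log2 difference of 1.18 ± 0.15 (adjusted p = 0.000188). Of the 11 inhibitory receptors and ectoenzymes tested outside the rule, Havcr2 and Cd244a (2B4; 1.15, adjusted p = 0.000408) were called, and 7 were higher at the adjusted p alone, with none lower. The other 5 were Cd200r1 (0.90), Tigit (0.74), Cd38 (0.59), Cd160 (0.57) and Entpd1, which encodes CD39 (0.55). Ctla4 differed by 0.36 (adjusted p = 0.254) and Btla by -0.38 (adjusted p = 0.627). The difference of Havcr2 was 0.99, just under the limit, without cells that had 2 or more UMIs of macrophage or B cell genes. Tnfrsf9 (4-1BB), a costimulatory receptor that T cells gain after antigen contact, was at 143, 95.6, 122 and 139 against 16.4, 18.6, 51.2 and 32.3 CPM, higher by 1.93 ± 0.17 (adjusted p = 3.62e-06), and was the one called among the 10 costimulatory receptors tested. Rgs16, a brake on G protein-coupled chemokine receptors, rose by 1.59 ± 0.17 (adjusted p = 2.58e-05). The killer lectin-like receptor Klre1 (1.15), the CD200 receptor-like Cd200r4 (1.08), Ier5l (1.07) and the actin-associated protein kinase C substrate Plek (1.05) completed the 12 largest called rises among genes with at least 50 CPM.

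Among genes with at least 50 CPM the largest fall was that of Ly6c2, which encodes the Ly-6C protein of memory CD8 T cells (ENSMUSG00000022584, chr15:75108158-75111970, minus strand). It was at 40.0, 64.8, 23.3 and 25.8 CPM in the PD-1 LAG-3 CD8 cells and 742, 662, 162 and 221 CPM in the other cells, a log2 difference of -3.45 ± 0.14 (adjusted p = 6.44e-10). The other Ccl5-high cells of the sh-NC libraries were far above those of the sh-B7-H3 (1) libraries, and even the lowest of them lay above every library of the PD-1 LAG-3 CD8 cells. Il7r, the IL-7 receptor of resting and memory T cells, was at 33.4, 21.9, 23.3 and 33.3 against 276, 234, 92.6 and 92.5 CPM (-2.39 ± 0.21, adjusted p = 3.4e-06). Tcf7 (ENSMUSG00000000782, chr11:52252371-52283014, minus strand), the gene of the progenitor factor TCF-1, was at 29.2, 25.1, 20.8 and 21.2 against 122, 122, 46.3 and 58.3 CPM (-1.78 ± 0.15, adjusted p = 3.4e-06). Of the 13 naive, resting and progenitor genes tested, 10 were called lower and none higher, and the median was -1.28. They included Klf2 and S1pr1, which guide T cells out of tissue (-2.11 and -1.79), the lymph node homing receptor Ccr7 (-1.28), and Slamf6 and Id3 of progenitor exhausted cells (-1.24 and -1.79), together with Lef1 (-1.19) and Satb1 (-1.21). Further called genes outside that list were Ms4a4c (-2.05), Gpr183 (-1.45), Gramd3 (-1.39), Dapl1 (-1.37) and Emb (-1.30).

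**Figure D2:**
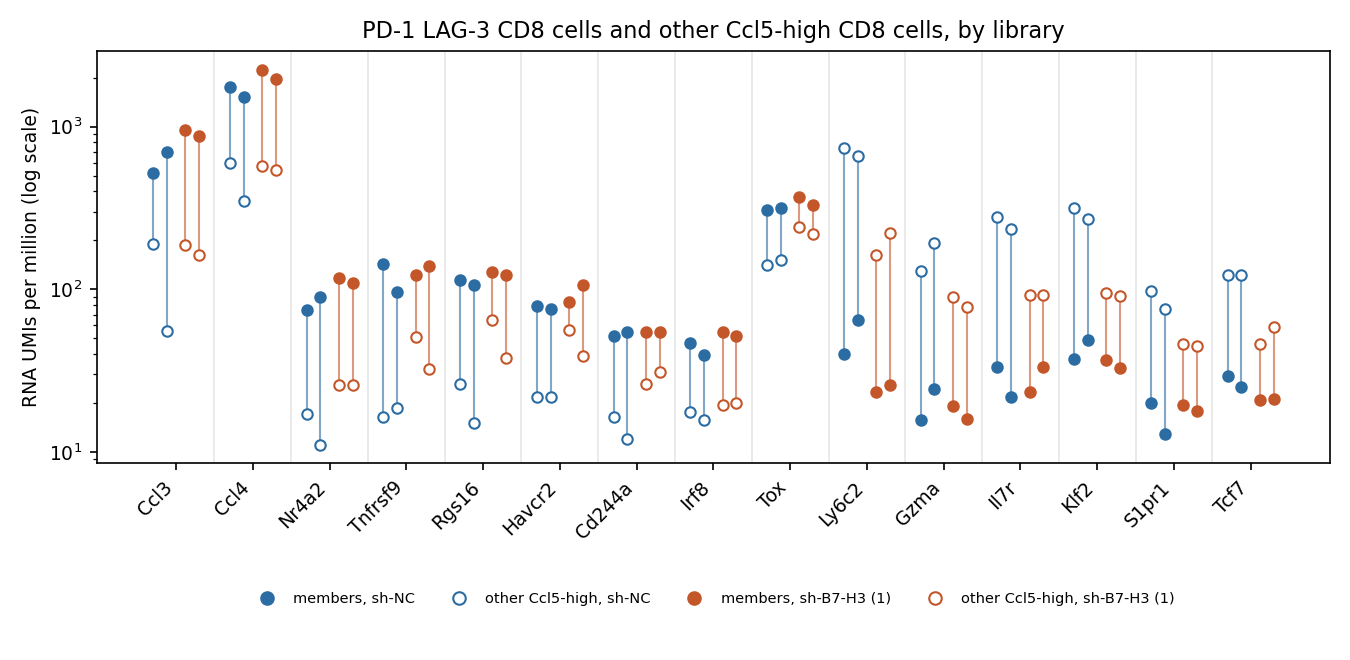
RNA levels in CPM (log axis) of 15 named genes in PD-1 LAG-3 CD8 cells (filled points) and other Ccl5-high CD8 cells (open points), 1 point per library and cell group. Ccl3, Nr4a2 and Tox lay higher in all libraries of the PD-1 LAG-3 CD8 cells, while Ly6c2, Gzma, Il7r and Tcf7 lay lower.

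Cytotoxic granule genes did not move together. Gzma was at 15.8, 24.3, 19.2 and 15.9 against 130.3, 193, 89.1 and 77.6 CPM and fell by 2.63 on the log2 scale (adjusted p = 5.09e-09), and Gzmm, at 1.67, 1.62, 0.946 and 0.483 against 32.3, 32.3, 5.34 and 6.97 CPM, fell as well (-3.83 ± 0.35, adjusted p = 5.06e-06). Perforin (Prf1, 0.44), Nkg7 (0.47) and Cst7 (0.38) rose at the adjusted p alone. Gzmb differed by 0.26 ± 0.15 (adjusted p = 0.375) and Gzmk by 0.10 ± 0.12 (adjusted p = 0.721) over all 4 libraries. Of the 14 granule genes tested, 2 were called lower and none higher, with a median of 0.27. Among 12 genes of residency and homing, Cxcr4 (-1.20), Ccr2 (-1.10, but 0.86 against all other CD8 cells) and the gut-homing integrin Itgb7 (-1.19) were called lower, whereas Cxcr6, a receptor of tissue-resident T cells, rose by 0.46 (adjusted p = 0.00716). No gene was called among the 6 cell cycle genes, the 9 interferon-induced genes and the 9 glycolysis and hypoxia genes tested, whose medians were 0.37, -0.21 and 0.13. Cells with both Ifit1 and Ifit3 had been left out of both cell groups, so the interferon-induced genes were not tested on such cells. Among CD8 cells with both receptors this limit took out 33 of 214, 24 of 205, 34 of 481 and 42 of 604. Of 16 genes induced by T cell receptor signaling, Rgs16 was called higher and Fos lower. The naive CD8 list overlaps the progenitor list, and 6 of its 7 genes were called lower.

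The lists of other cell types were examined beside these results. No macrophage gene was called among the 9 tested, with a median of -0.16, and the 11 genes summed to 300.2, 177, 687 and 843 CPM in the PD-1 LAG-3 CD8 cells and 307, 657, 589.6 and 786 CPM in the other cells. Of the NK cell markers, Ncr1 and Klra8 were at 0 in the PD-1 LAG-3 CD8 cells (Klra8 was at 1.51 CPM in the other cells of sh-NC 2), and Klri2 was called higher at 0.834, 0, 28.1 and 16.7 against 0, 0, 4.90 and 7.60 CPM. The gamma-delta constant gene Tcrg-C1 was higher (1.09) and Trdc lower (-1.29), with Sox13 and Il17a at 0 in the PD-1 LAG-3 CD8 cells (Sox13 was at 0.317 CPM in the other cells of sh-B7-H3 (1) 2). Alpha-beta CD8 T cells can also transcribe Tcrg-C genes, and near-identical Tcrg-C copies can share reads. The summed B cell list was at 46.7, 51.1, 45.1 and 45.6 CPM in the PD-1 LAG-3 CD8 cells, with Cd79a at 0, and at 112, 115, 55.7 and 66.5 CPM in the other Ccl5-high cells, lower in the former in every library and by the wider margin in the sh-NC libraries. Its 1 gene tested, Ighm, differed by -0.77 (adjusted p = 0.00279). In the PD-1 LAG-3 CD8 cells the CD4 and regulatory T cell list (Cd4 at 0 by the rule) was at 15.8, 4.86, 13.6 and 15.2 CPM and the tumor and stromal list (Col3a1 at 0) at 42.5, 38.9, 23.0 and 23.4 CPM. Their part in the results was not tested.

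The difference between the cell groups was then estimated within each tumor group. A joint fit of all 4 libraries was used, here and for the tags below. Each p-value and SE thus also draws on the spread in the other tumor group. Within the sh-NC libraries, 135 of 9159 genes were called higher (1.47%) and 191 lower (2.09%), and within the sh-B7-H3 (1) libraries 51 (0.557%) and 37 (0.404%). Of the 11 inhibitory receptors tested, 5 were called higher within sh-NC (median 0.96) and none within sh-B7-H3 (1) (median 0.33). Of the 13 progenitor genes, 11 were called lower within sh-NC (median -2.23) and 6 within sh-B7-H3 (1) (median -0.88). The macrophage list moved with this contrast: 7 of its 9 genes tested were called lower within sh-NC (median -1.12) and none within sh-B7-H3 (1) (median 0.17). So did the B cell list, of which both genes tested, Cd79b and Ighm, were called lower within sh-NC (median -2.09) and none within sh-B7-H3 (1) (median -1.07). The make-up of the other Ccl5-high cells also differed: 34.0, 36.2, 38.3 and 40.6% of them carried Pdcd1 and 18.2, 16.7, 30.3 and 29.0% Lag3. Their median depth was 6294, 6392, 5897 and 5734 RNA UMIs, against 6187, 6296, 6652 and 7001 in the PD-1 LAG-3 CD8 cells. The part of either list, of this make-up and of depth in the other differences was not tested. The test of the interaction of hairpin and cell group, in which a gene was called at an adjusted p under 0.05, found 136 genes with a more positive (1.48%) and 88 with a more negative (0.961%) knockdown effect in the PD-1 LAG-3 CD8 cells. The former held 8 of the 13 progenitor genes, among them Il7r (1.62), Klf2 (1.41) and Tcf7 (0.93), all 9 macrophage genes (median 1.38) and the B cell gene Ighm (0.86). The 224 genes of this test became 21 without cells with 2 or more UMIs of macrophage or B cell genes, 98 without sh-B7-H3 (1) 1 and 123 without sh-B7-H3 (1) 2. In the other Ccl5-high cells, 84 of 8686 genes were called higher with sh-B7-H3 (1) (0.967%) and 106 lower (1.22%). The lower ones included 9 of the 13 progenitor genes, with a median of -1.09, whereas none of the 13 was called in the PD-1 LAG-3 CD8 cells. They also included the B cell gene Cd79b (-1.48, adjusted p = 0.0243). Tcf7, for example, differed by -0.29 (adjusted p = 0.603) between the tumor groups in the PD-1 LAG-3 CD8 cells and by -1.21 (adjusted p = 1.11e-08) in the other cells.

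Surface protein, which the rule did not use, showed the same cells from another readout. The PD-1 tag was at 10506, 11262, 9301 and 9682 tag CPM in the PD-1 LAG-3 CD8 cells and 6574, 6933, 8053 and 8226 tag CPM in the other Ccl5-high cells. Per cell, the median was 63, 63, 45 and 33 PD-1 tag UMIs against 33, 31, 39 and 28, and naive-like CD8 cells held 6, 5, 10 and 8. The PD-1 tag was thus higher in every library, with a narrower gap in the sh-B7-H3 (1) libraries. The part of the make-up of the other Ccl5-high cells, given above, in this gap was not tested. Tags were called at an adjusted p under 0.05 and a log2 difference of at least 0.5. Over all 4 libraries Ly-6C alone was called among 197 tags (0.508%), lower by 1.26 ± 0.13 (adjusted p = 0.0474), a call that was lost when any 1 library was left out, and PD-1 differed by 0.59 ± 0.15 (adjusted p = 0.114). The median cell held 55, 47, 19 and 17 Ly-6C tag UMIs against 70, 58, 19 and 19 in the other cells, whose upper quartiles were 250, 199, 26 and 27 against 65, 57, 26 and 22, so that in the sh-NC libraries the upper quartiles lay further apart than the medians. No tag for LAG-3 was among the 197.

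Within the sh-NC libraries, 12 tags were called higher (6.09%) and 7 lower (3.55%). The higher ones were CD200R, an inhibitory receptor for CD200 (1.42 ± 0.03), the ectoenzymes CD39 (0.91 ± 0.05) and CD38 (0.85 ± 0.04), PD-1 (0.90 ± 0.03, adjusted p = 0.000486), CXCR6 (0.87), CD86 (0.74), TIGIT (0.69), CD43 (0.68), GITR (0.61) and CD54 (0.56), and, outside the rule for named tags and named after their values were seen, CD85k (0.54) and CD11b (0.52). CD39 was at 59414, 59586, 56732 and 55405 tag CPM in the PD-1 LAG-3 CD8 cells and 34983, 38672, 48168 and 44899 tag CPM in the other cells, with no overlap. The lower ones were the fatty acid receptor CD36 (-1.95), Ly-6C (-1.52), Ly108, the protein of Slamf6 (-1.38), CD11c (-1.04), CD102 (-0.85), CD127, the protein of Il7r (-0.83), and Gr-1 (-0.52). Within the sh-B7-H3 (1) libraries, CD200R was called higher (0.58; 0.508% of tags) and Ly-6C and CD36 lower (-0.99 and -0.87; 1.02%). For PD-1, CD39, CD200R, Ly108 and CD127 the difference between the hairpins was itself past the test (interaction values -0.63, -0.59, -0.83, 0.91 and 0.60), as for 16 tags in all (8.12%).

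The TIM-3 tag was low, at 427, 460.0, 699 and 792 tag CPM against 378, 370.2, 713 and 723 tag CPM, and differed by 0.27 (adjusted p = 0.199). Its median was 2, 2, 3 and 3 UMIs per PD-1 LAG-3 CD8 cell and 2, 1, 3 and 2 UMIs per naive-like CD8 cell. The tag thus hardly separated even these cells, and it cannot be set against Havcr2 RNA. CTLA-4 (CD152, -0.04), KLRG1 (-0.13), CD103 (-0.08), CD69 (-0.03), CD137 (0.32), ICOS (0.00) and CD8a (0.28) were not past the limits. The CD44 tag gave no usable group value, since 1 cell held 1571 of 1824 UMIs in sh-NC 1 and 1 cell held 775 of 1491 in sh-B7-H3 (1) 1.

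**Figure D3:**
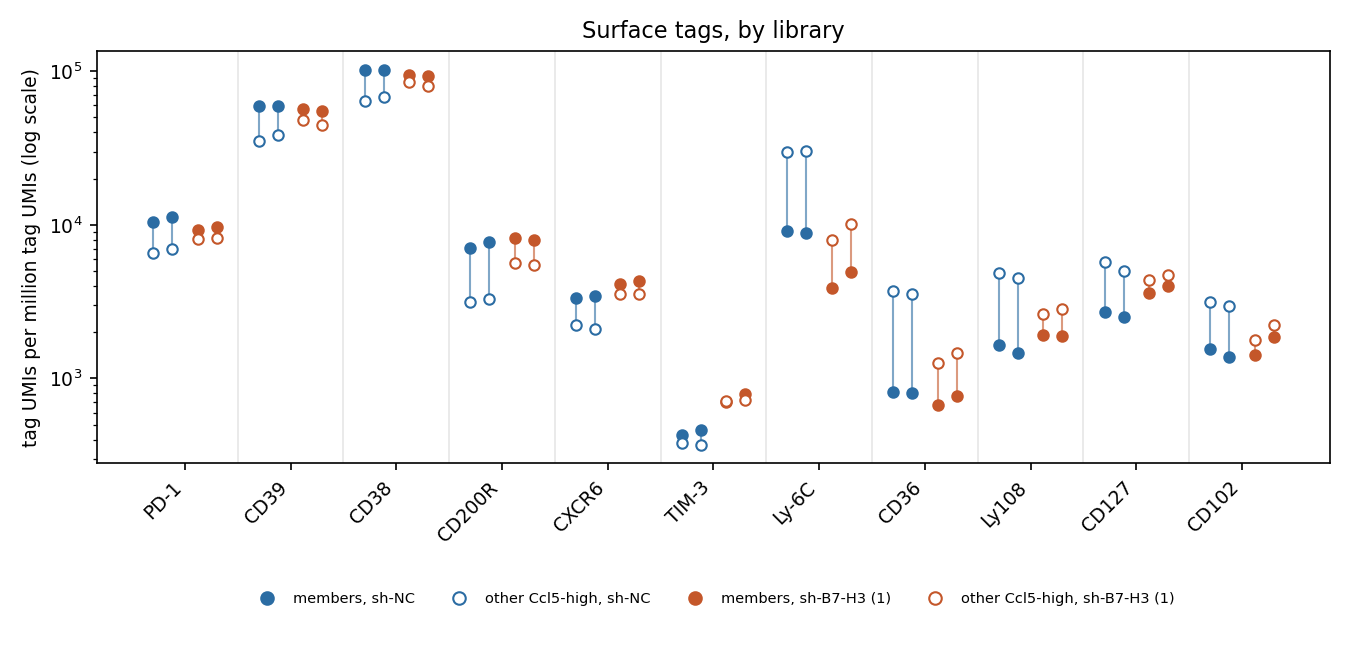
Surface tag levels in tag CPM (log axis) in PD-1 LAG-3 CD8 cells (filled points) and other Ccl5-high CD8 cells (open points), 1 point per library and cell group. PD-1, CD39 and CD200R lay higher and Ly-6C and CD36 lower in the PD-1 LAG-3 CD8 cells of every library, with wider gaps in the sh-NC libraries.

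Between the tumor groups, PD-1 LAG-3 CD8 cells from sh-B7-H3 (1) tumors carried more Il18r1 RNA than those from sh-NC tumors, and all 9 macrophage genes tested rose as well. Differences below the limit of 1 but at an adjusted p under 0.05 were found for Gzmb, Gzmk and Fasl, which were lower, and for Ccl3 and Ccl4, which were higher, while no granule gene was called. Of 8854 genes tested, 57 were called higher (0.644%) and 21 lower (0.237%). At the adjusted p alone, 167 (1.89%) were higher and 114 (1.29%) lower. With DESeq2 the count of calls was 3, or 25 without that tool's own filter on low means. The 78 calls became 50 without sh-B7-H3 (1) 1, 44 without sh-B7-H3 (1) 2 and 34 without cells with 2 or more UMIs of macrophage or B cell genes.

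Granzyme B (Gzmb; ENSMUSG00000015437, chr14:56258838-56262260, minus strand), the main protease of cytotoxic granules, was at 505, 389, 194 and 241 CPM. Both sh-B7-H3 (1) libraries lay below both sh-NC libraries, and the log2 difference was -0.95 ± 0.08 (adjusted p = 2.59e-10). The level in the other Ccl5-high cells was 206, 257, 223 and 255 CPM, with a difference of 0.04 ± 0.09 (adjusted p = 0.861), and the interaction was -0.98 ± 0.12 (adjusted p = 2.17e-06). Gzmk, at 439.5, 386, 261 and 284 CPM, fell by 0.52 ± 0.07 (adjusted p = 8.89e-07), with an interaction of -0.79 ± 0.10 (adjusted p = 6.67e-06). Fasl, the ligand of the death receptor Fas, was at 193, 202, 126 and 134 CPM and fell by 0.52 ± 0.09 (adjusted p = 9.94e-05). At the adjusted p alone, 6 of 13 granule genes were lower and none higher, the others being Srgn (-0.25), Ctsw (-0.31) and Lamp1 (-0.67). None of these 6 reached the limit of 1, and Prf1 differed by -0.01 (adjusted p = 0.986). Within sh-NC tumors PD-1 LAG-3 CD8 cells had more Gzmb than the other cells (0.78 ± 0.09, adjusted p = 1.45e-08), while within sh-B7-H3 (1) tumors the difference was -0.20 ± 0.08 (adjusted p = 0.199).

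In the other direction, Ccl3 rose by 0.66 ± 0.07 (adjusted p = 1.63e-08) and Ccl4 by 0.43 ± 0.05 (adjusted p = 3.17e-07), both below the limit of 1, and the free RNA of droplets without a cell (barcodes with 10 to 100 UMIs) also held more Ccl3 with sh-B7-H3 (1), at 78.6, 105, 282 and 289 CPM. Nr4a2 rose by 0.53 (adjusted p = 0.00395) and Rbpj by 0.59. In the other Ccl5-high cells Ccl3, Ccl4, Nr4a2 and Rbpj differed by 0.55, 0.24, 0.90 and 0.90, of which Nr4a2 and Rbpj passed the adjusted p. Tox was at 306, 316, 371 and 332 CPM, higher by 0.24 (adjusted p = 0.0381) and by 0.64 in the other cells (adjusted p = 3.82e-06), and of the 17 exhaustion factors 4 were higher and 1 lower at the adjusted p alone, with none called. Of the 11 other inhibitory receptors none was higher or lower even at the adjusted p alone, and their median was 0.11. Havcr2, for example, was at 79.2, 75.4, 83.2 and 106 CPM (0.38, adjusted p = 0.121), whereas it was called higher in the other cells (1.09, adjusted p = 0.000307, interaction adjusted p = 0.196).

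Il18r1, the receptor chain for IL-18 (ENSMUSG00000026070, chr1:40465552-40500854, plus strand), was named after its values were seen. It was at 11.7, 13.0, 48.9 and 45.9 CPM in the PD-1 LAG-3 CD8 cells, higher with sh-B7-H3 (1) by 2.01 ± 0.23 (adjusted p = 7.2e-08). In the other Ccl5-high cells it was at 54.2, 71.6, 37.0 and 28.2 CPM and fell (-1.0 ± 0.16, adjusted p = 6.14e-05), so the 2 cell groups moved in opposite directions with an interaction of 2.99 ± 0.27 (adjusted p = 2.06e-09). With up to 5000 genes per cell the rise in the PD-1 LAG-3 CD8 cells was 0.85, under the limit. Other genes called higher were the fractalkine receptor Cx3cr1 (6.67, 11.3, 23.6 and 25.1 CPM; 1.5), the G protein regulator Rgs2 (1.14), the NK receptor Klrc2 (1.01), the calmodulin-binding Nrgn (1.94), metallothionein Mt1 (1.67), glutathione transferase Gsta4 (1.18), the mitochondrial tRNA synthetase Lars2 (1.95) and Spp1 (1.66, on the few UMIs given above). In the other cells the differences of these 8 genes, in this order, were -0.71, 0.74, -0.34, 2.09, 0.27, 4.15, 2.11 and 1.35, and Nrgn, Gsta4 and Lars2 were called higher there too. Ccl1 had the largest fitted value, but 1 cell held 609 of its 613 UMIs in sh-B7-H3 (1) 1 and 1 cell 141 of 164 in sh-B7-H3 (1) 2. Called lower were the SLAM receptor Slamf7 (55.0, 55.9, 20.5 and 24.9 CPM; -1.20), the phosphatase Dusp1 (-1.13), Ly6a, which encodes Sca-1 (-1.04), and Ly6c2 (-1.01, but 0.60 where at least 2 UMIs of each receptor were asked for). Below the limit, Cxcr3 (-0.80, adjusted p = 6.46e-05), the early activation marker Cd69 (-0.87, adjusted p = 4.66e-06) and the glucocorticoid-induced Tsc22d3 (-0.96, adjusted p = 0.000941) were lower. In the other cells Slamf7 (-1.02), Ly6c2 (-1.86), Cd69 (-1.01) and Tsc22d3 (-1.45) were called lower as well, while Dusp1, Ly6a and Cxcr3 differed by -0.23, -0.62 and -0.39. None of the 9 cell cycle genes and 9 glycolysis and hypoxia genes tested was called, and Ly6a was the one called of 10 interferon-induced genes. Here too, cells with both Ifit1 and Ifit3 had been left out, which took a larger share of the cells with both receptors in the sh-NC libraries.

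All 9 macrophage genes tested were called higher with sh-B7-H3 (1), with a median of 1.88 beside 0.0048 for all genes. Cd74, the MHC-II invariant chain, was at 57.5, 39.7, 134 and 201 CPM (1.88 ± 0.17), H2-Ab1 at 13.3, 10.5, 52.6 and 65.9 CPM (2.40 ± 0.23), Apoe at 102, 45.4, 214 and 242 CPM (1.72 ± 0.14) and C1qa at 26.7, 17.0, 58.9 and 53.4 CPM (1.43 ± 0.20). The whole list of 11 genes summed to 300.2, 177, 687 and 843 CPM in these cells and to 459, 498, 1478 and 1402 CPM in the free RNA, and 8.84, 4.97, 15.7 and 20.1% of the cells had at least 2 of its UMIs. Without the cells with the highest doublet scores Cd74 differed by 0.23 and C1qa by -0.79, while Apoe still differed by 1.28. In the other Ccl5-high cells none of the 9 was called, with a median of 0.47. The surface tags of MHC-II (I-A/I-E; 0.03, adjusted p = 0.703) and F4/80 (0.13, adjusted p = 0.489) did not pass the test. The NK markers Klri2 and Tyrobp (1.31) and the gamma-delta gene Trdc (1.67, 2.43, 23.3 and 16.7 CPM, reversed to -1.15 with up to 5000 genes per cell) were also called higher, Klri2 at 0.834, 0, 28.1 and 16.7 CPM against 0, 0, 4.90 and 7.60 CPM in the other cells. The part of free RNA and doublets in these rises was not tested. For granzyme B, whose free RNA was at 28.3, 38.9, 67.3 and 39.9 CPM, the fall was -0.76 without the highest doublet scores and -0.99 without cells with 2 or more UMIs of macrophage or B cell genes.

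**Figure D4:**
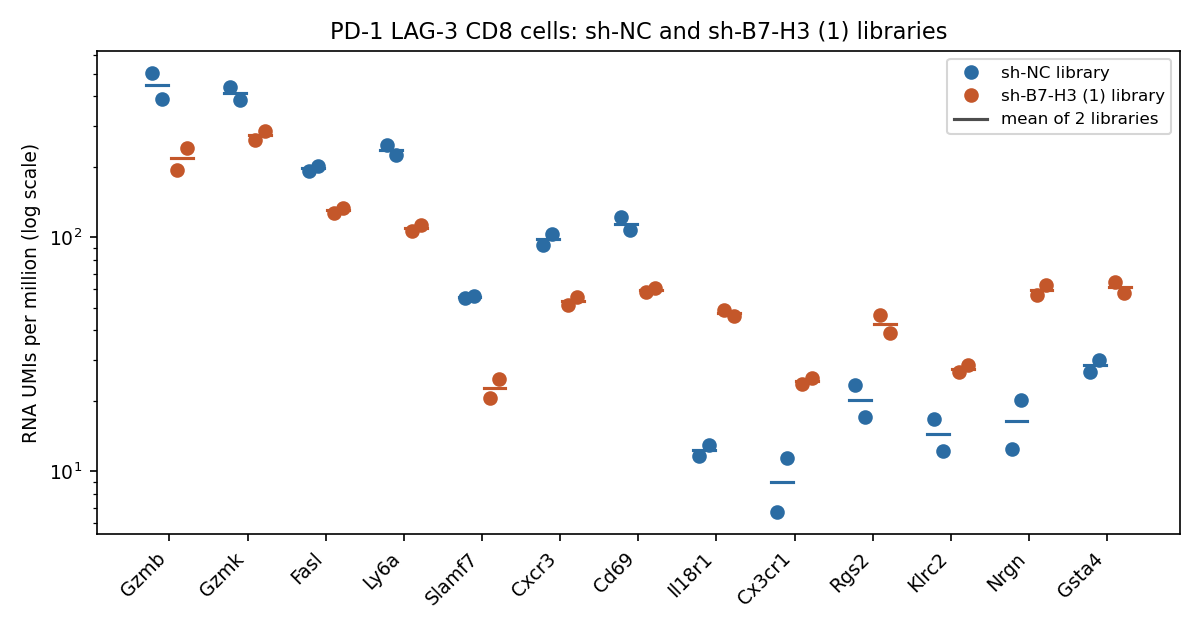
RNA levels in CPM (log axis) of 13 named genes in PD-1 LAG-3 CD8 cells of the 4 libraries, with lines at the mean of each group's 2 libraries. Gzmb, Gzmk, Fasl, Ly6a, Slamf7, Cxcr3 and Cd69 lay lower and Il18r1, Cx3cr1, Rgs2, Klrc2, Nrgn and Gsta4 higher in both sh-B7-H3 (1) libraries.

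On the surface, 11 of 197 tags were called higher (5.58%) and 22 lower (11.2%) with sh-B7-H3 (1). The split depended on the scaling: it was 10 and 23 with RLE size factors and 5 and 30 when libraries were scaled by the 9 isotype control antibodies, which shifted the median of all tags from 0.04 to -0.13. The values below are given relative to the TMM scaling, under which most tags centre on 0. The PD-1 tag fell by 0.69 ± 0.07 (adjusted p = 0.00162; -0.86 by isotype scaling), CD38 by 0.62 and CD39 by 0.58. In tag CPM, without TMM scaling, the log2 ratios of the group means were much smaller, at -0.20, -0.12 and -0.086, so the size of these falls depends on the scaling. In the other Ccl5-high cells the PD-1 tag differed by -0.13 (adjusted p = 0.195). Ly-6C fell most (-1.53 ± 0.11, and -1.04 in tag CPM), at 9124, 8912, 3901 and 4900.0 tag CPM, and by more in the other Ccl5-high cells (-2.13 ± 0.12, at 29728, 30449, 7923 and 10179.6 tag CPM). Its per-cell median was also lower with sh-B7-H3 (1) in naive-like CD8 cells (64, 58, 22 and 23 UMIs) and in CD4 cells chosen by their RNA (60, 52, 19 and 17 UMIs). In the PD-1 LAG-3 CD8 cells it was followed by CD45 (-1.01), CD2 (-0.92), HVEM (-0.80), CD1d (-0.79), CD117 (-0.77), CD90.2 (-0.76), Sca-1 (-0.71) and CD36 (-0.66). In the other cells these 8 tags differed by -1.08, -0.88, -0.73, -0.73, -0.43, -0.69, -0.64 and -1.82, in the same order. CD22 (1.29) and CCR8 (1.13) rose most, and they differed by 1.34 and 1.18 in the other cells. CD90.2 alone took 36.2, 37.5, 30.5 and 30.7% of the tag UMIs of the PD-1 LAG-3 CD8 cells, and isotype controls 0.215, 0.200, 0.315 and 0.341%. A difference in staining between the libraries and a difference between the cells cannot be told apart here.

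Single cells were compared at equal depth, after thinning each PD-1 LAG-3 CD8 cell to 2000 UMIs. Gzmb was then found in 34.6, 32.8, 21.9 and 21.9% of them, Gzmk in 55.9, 52.8, 43.2 and 42.0% and both in 21.8, 19.4, 11.6 and 10.7%. Cells with both granzymes were thus less frequent in both sh-B7-H3 (1) libraries than in either sh-NC library. Ccl3 was found in 19.0, 23.3, 28.2 and 29.2%, Ifng in 21.8, 29.4, 29.3 and 28.5%, Tox in 40.2, 42.2, 48.1 and 43.6% and Havcr2 in 11.2, 17.2, 15.7 and 17.3%. Tcf7 was found in 2.23, 2.78, 3.58 and 2.67% and together with Havcr2 in 0, 1, 3 and 2 cells. Mki67, a marker of cycling cells, was found in 3.35, 1.11, 1.79 and 2.49%. Of the 11 other inhibitory receptors a cell carried on average 1.27, 1.22, 1.26 and 1.25, against 0.779, 0.720, 0.997 and 0.992 in the other Ccl5-high cells and 0.231, 0.221, 0.207 and 0.156 in naive-like cells. The number per PD-1 LAG-3 CD8 cell therefore varied little between the tumor groups, whereas it was higher in the other Ccl5-high cells with sh-B7-H3 (1). Exact two-sided permutation tests of the 8 single-gene shares gave p from 0.33 to 1 before adjustment, which can only raise them, and 2 against 2 libraries cannot reach 0.05. As a background at 2000 UMIs, naive-like CD8 cells had Ccl3 in 0.317, 0.196, 2.59 and 2.34%. They had Ifng in 0.158, 0.131, 0.862 and 0.781% and Gzmb in 0.317, 0.393, 0 and 0%. The part of this background in the shares above was not tested.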

How the data were processed

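Each of the 4 libraries held RNA and antibody tags of sorted intratumoral T cells. The values the authors deposited were raw counts: UMIs per gene (32285 genes) or tag (197 named tags, 9 of them isotype controls) and barcode, not normalized, written as Cell Ranger matrices with Cell Ranger 6.1.1 in the header of the filtered and 4 in that of the raw matrices. The submitters' processing notes name Cell Ranger, Seurat 4.0.0 and mm10. A tag without a name was left out, and the doublet removal of the study was not repeated. With the same limits on genes and mitochondrial reads, and with doublets removed, the study kept fewer cells than the 21900 used here.

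Cells were chosen by UMI thresholds, without clustering, and cells with UMIs of both Ifit1 and Ifit3 were left out of the PD-1 LAG-3 CD8 cells and of the other Ccl5-high CD8 cells. UMIs were summed per library and cell group and tested with edgeR 4.0.16 (glmQLFit and glmQLFTest, TMM scaling, filterByExpr for genes, Benjamini-Hochberg adjustment over all features tested). Cell groups of the same libraries were compared with the library as a block, and hairpins without a block. Genes were called at an adjusted p under 0.05 and an absolute log2 difference of at least 1, tags at 0.5. The gene statistics were tested on simulated data first. Those data had the same dispersion for all genes and no difference between libraries beyond depth and the changes put in. They cannot show how the tests behave on genes whose UMIs sit in few cells. Cells were thinned to 2000 UMIs for shares, with 95% exact binomial intervals, and a count of 0 was given an upper limit of 3 counts. Shares were compared by exact permutation tests. The p-values of the hairpin comparisons measure the spread between 2 libraries made from 80 pooled tumors per group, which may be technical. Those of cell groups and of the interaction measure how the difference within a library varies between these libraries.

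Named genes were those of 21 fixed lists and, among genes outside the rule with at least 50 CPM in the higher group, the 12 highest and 12 lowest called differences with the same direction in all libraries. Mitochondrial, ribosomal protein, T cell receptor segment and unnamed genes were left out of that ranking, and some genes and tags are not reported here. Named tags were the 10 highest and 10 lowest called and a fixed set of tags of T cell receptors and markers. The cells and the lists were chosen with earlier results of these data known. Alternatives were DESeq2 1.42.0, RLE and isotype scaling, no filter on low counts, other cell limits, another reference, matched depth, doublet scores and leaving out each library. Python 3.11.15, SciPy 1.17.1, scikit-learn 1.9.0 and R 4.3.3 were used.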

Additional observations from a re-analysis of the deposited data

Results flagged for a closer look

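The effect of sh-B7-H3 (1) differed between PD-1 LAG-3 CD8 cells and other Ccl5-high CD8 cells, by edgeR's test of the interaction with an adjusted p under 0.05, for the following named genes and tags. Values are the log2 effect in the PD-1 LAG-3 CD8 cells minus that in the other cells, 4 libraries. Positive values were found for Il18r1 (2.99), Cx3cr1 (2.22), the resting and homing genes Il7r (1.62), Satb1 (1.60), Klf2 (1.41) and S1pr1 (1.21), the chemokine Xcl1 (1.25), metallothionein Mt1 (1.45) and the killer lectin-like receptor Klrd1 (0.56). Negative values were found for the granule genes Gzmb (-0.98) and Gzmk (-0.79), Fasl (-0.54), the receptors Cd200r1 (-0.96) and Tnfrsf9 (-0.94), the ectoenzyme Cd38 (-0.94), Rgs16 (-1.01) and Gsta4 (-2.98). Il18r1 was higher in the PD-1 LAG-3 CD8 cells and lower in the others, and Gzmk lower in the former (-0.52) and higher in the latter (0.28), each at an adjusted p under 0.05. Other genes of this list also had effects of opposite sign, such as Cx3cr1, whose effect in the other cells (-0.71) did not pass the test. Xcl1 rested on few cells, as given above. The 224 genes of this test became 21 without cells with macrophage or B cell UMIs, 98 without sh-B7-H3 (1) 1 and 123 without sh-B7-H3 (1) 2.

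Surface tags showed the same kind of difference. CD36 (1.08), Ly108 (0.91), CD102 (0.61), CD127 (0.60) and Ly-6C (0.53) had positive values, and CD200R (-0.83), PD-1 (-0.63), CD38 (-0.62), CD39 (-0.59) and CXCR6 (-0.58) negative ones. RNA and tag had the same sign for Il7r and CD127, Cd38 and CD38, and Cd200r1 and CD200R. The 16 tags of this test became 5 without cells with macrophage or B cell UMIs. The part of the make-up of the other Ccl5-high cells in these gene and tag values was not tested. With 2 libraries per group, single libraries could not be tested for standing apart from their group.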

How the results depend on the processing

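The comparison of PD-1 LAG-3 CD8 cells with other Ccl5-high CD8 cells called 132 genes, against 216 with no filter on low counts, 70 without cells with macrophage or B cell UMIs, 84 with the reference matched in depth, 1388 against all other CD8 cells, 598 with no limit on the fold change, 326 within the sh-NC libraries and 103 to 152 with 1 library left out. For tags the 1 call became 11 with DESeq2 (11 without its own filter on low means), 2 with RLE size factors, 3 with isotype scaling, 0 with no library block, 2 with up to 5000 genes, 0 without the highest doublet scores, 4 with at least 2 UMIs of both receptors, 3 with matched depth, 23 against all other CD8 cells, 19 within sh-NC, 3 within sh-B7-H3 (1), and 0 to 0 with 1 library left out. For knockdown in the PD-1 LAG-3 CD8 cells, 78 genes became 3 with DESeq2, which left 8415 of 8854 genes without an adjusted p, 25 without its own filter on low means, 43 without the highest doublet scores, 33 with at least 2 UMIs of both receptors, 34 without cells with macrophage or B cell UMIs, 281 with no limit on the fold change, and 44 to 87 with 1 library left out (50 without sh-B7-H3 (1) 1, 44 without sh-B7-H3 (1) 2). The 33 tags became 81 with no limit and 33 to 38 with 1 library left out. In the other cells 190 genes became 30 with DESeq2, 63 without its own filter, 312 with up to 5000 genes, 82 without cells with macrophage or B cell UMIs and 137 to 205 with 1 library left out. For the difference of the knockdown effect, 224 genes became 82 with DESeq2, 51 without its own filter, 21 without cells with macrophage or B cell UMIs and 98 to 252 with 1 library left out (98 without sh-B7-H3 (1) 1, 123 without sh-B7-H3 (1) 2), and 16 tags became 10 with up to 5000 genes, 9 without the highest doublet scores, 5 without cells with macrophage or B cell UMIs and 11 to 31 with 1 library left out (31 without sh-NC 2). The ratio of shares among CD8 cells, 5.27, was 4.75 with up to 10% mitochondrial UMIs, 4.05 without the highest doublet scores, 3.22 without cells with macrophage or B cell UMIs, 3.82 after thinning to 2000 and 2.08 to 1000 UMIs, 1.25 among only CD8 cells with at least 20 Ccl5 UMIs (the last 2 chosen after seeing the data) and 4.92 to 5.67 with 1 library left out. Among all cells that passed the limits the ratio of 4.70 was 3.97, 3.67, 3.35, 3.86, 2.38 and 4.29 to 5.20 in the same order, without the Ccl5 limit. The ratios of single-gene shares were 1.16 for Havcr2 (1.68 at 1000 UMIs, 0.956 to 1.47 with 1 library left out, lowest without sh-NC 1), 1.25 for Tcf7 (0.923; 1.06 to 1.43), 0.650 for Gzmb (0.721 not thinned, 0.686 at 1000 UMIs), 0.784 for Gzmk (0.880 and 0.671), 0.981 to 1.33 for Ifng with 1 library left out, and 0.959 for Mki67 (1.12 not thinned, 1.03 at 1000 UMIs, 0.639 to 1.93, highest without sh-NC 1). Of single genes, Ccr2 (0.86) and Cxcr3 (0.74) reversed against all other CD8 cells, C1qa (-0.79), C1qb (-0.052) and Lyz2 (-0.83) without the highest doublet scores, Ly6c2 (0.60) with at least 2 UMIs of both receptors and Trdc (-1.15) with up to 5000 genes, and of 2227 values of single genes and tags under an alternative 1939 kept their direction and side of the threshold. The cause of these changes was not tested. Values without an adjusted p, as DESeq2 left for many genes, are not among the 2227. A feature that was called under neither setting counted as kept when its direction was the same. Same-numbered libraries deviated together with a correlation of 0.0227 over genes and 0.0731 over tags. Counting noise also lowers such a correlation, so whether they shared a batch cannot be told from it. The median cell that passed the limits held 4716, 4275, 4515 and 3260 tag UMIs and 8070, 8511, 6635 and 6827 RNA UMIs. A replicate block gave 92 genes and 33 tags for knockdown in the PD-1 LAG-3 CD8 cells. The sh-NC values rest on 181 cells in each library.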
